A study of Mus musculus with 32 samples.

Results

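The antigen receptor loci are the parts of the genome where lymphocytes assemble the genes for antibodies and T cell receptors. Here they were taken as 4 windows of GRCm38/mm10: Igh, chr12:113200000-116000000, for the immunoglobulin heavy chain; Igk, chr6:67500000-70750000, for the kappa light chain; Tra/Trd, chr14:52400000-54250000, for the T cell receptor alpha and delta chains; and Trb, chr6:40850000-41600000, for the beta chain. Together they span 8.65 Mb and hold 637 receptor gene segments of the RefSeq gene table. A peak of trimethylated histone H3 lysine 9 (H3K9me3) was a member when its midpoint lay in a window, so no measured value chose it. The 8 deposited peak lists held 2560 such peaks among 611602 in all.

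The lists come from ChIP-seq of male germ cells (gonocytes) of the testis at 2 embryonic stages, E13.5 and E16.5, and on postnatal days 0 and 3 (P0 and P3). Each stage had Morc1 (+/-) mice, called het below, which served as the control, and Morc1 (-/-) mice, called KO. All groups carried the Mvh-Venus transgene, a germ cell reporter, and no group was wild type for Morc1. The 16 H3K9me3 samples formed 8 groups of 2, and 1 list was available per group; 16 further samples with an antibody against histone H3 had no list and were not used here.

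H3K9me3 marks heterochromatin and is known for covering silent repeats and tandem gene arrays. Each receptor locus is such an array. Many V (variable) segments lie mostly before the D (diversity) or J (joining) segments and the constant genes. Lymphocytes join segments of each kind by recombination, which germ cells do not do. MORC1 is a germ cell ATPase known for its part in silencing transposons in the male germ line.

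Because each group had a single list, differences between lists could not be set against replicate spread or tested, and no p-value is given. Intervals are 95% Wilson intervals over kilobases, or over peaks for shares of unmatched peaks. They cover counting error only, and neighbouring kilobases or peaks are not independent. Read depth was unknown, and the lists differed in size, from 52628 peaks (E13.5 het) to 93523 (P0 KO), so covered lengths are set beside the rest of the genome (the 19 autosomes and X) in the same list. The labelled cell type was not checked, since peak positions carry no expression values.

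A few sequences stand for the contrast inside the loci. The promoters below (250 bases before to 50 after the gene start, RefSeq, GRCm38.p6, 5′ to 3′ on the gene's strand) show a promoter inside a peak in both E13.5 lists and one outside; capitals mark bases within a peak of both E13.5 lists. Gm40899 is a long noncoding RNA gene in the middle of the Igh V segments (plus strand, chr12:114764158-114764457), and Adam6a is a sperm gene of the ADAM family beside the D segments (plus strand, chr12:113543658-113543957).
Gm40899: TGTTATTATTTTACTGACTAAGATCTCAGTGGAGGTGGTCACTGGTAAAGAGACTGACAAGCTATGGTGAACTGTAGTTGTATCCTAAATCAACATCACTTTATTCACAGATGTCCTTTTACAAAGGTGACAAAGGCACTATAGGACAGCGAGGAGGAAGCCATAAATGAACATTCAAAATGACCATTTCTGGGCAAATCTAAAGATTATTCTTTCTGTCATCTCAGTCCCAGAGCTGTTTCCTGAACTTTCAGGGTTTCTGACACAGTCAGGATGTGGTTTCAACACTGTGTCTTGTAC
Adam6a: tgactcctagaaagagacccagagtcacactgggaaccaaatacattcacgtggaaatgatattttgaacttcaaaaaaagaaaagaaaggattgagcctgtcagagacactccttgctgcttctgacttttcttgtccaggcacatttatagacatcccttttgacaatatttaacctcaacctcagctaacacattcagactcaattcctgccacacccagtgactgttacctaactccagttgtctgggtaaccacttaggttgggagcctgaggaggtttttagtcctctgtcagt
All 300 bases of the Gm40899 promoter lay in a peak in both E13.5 lists and in E16.5 het, and none in the other 5 lists. The Adam6a promoter was outside the peaks of all 8 lists. The octamer ATTTGCAT, the motif of immunoglobulin promoters, searched on both strands, was in 1 of the 30 RefSeq promoters in the windows (3.33%) and in 1.74% of all 32851 promoters of that table. The table gave no V segment promoter. Of the 30 promoters, 21 were touched by no peak of any list. The same share over all promoters was not computed, so this count has no background beside it.

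The Igh window also holds microRNA genes inside its called stretch, and their mature sequences are shown with the seed (bases 2 to 8) in capitals.
mmu-miR-7094-1-5p: uCUGAAGAggauacagggucuga
mmu-miR-7094b-2-5p: uCUGGAGAggauacagggucuga
mmu-miR-7094-3p: uACUCUGCuguucucuccaca
Mir7094-1 and Mir7094-2 share the 3p product, and their 5p products have different seeds. Both genes were inside peaks over all 60 bases in all 8 lists. Mir6388, the other microRNA gene in the windows, was covered in 7 lists and not in P3 KO.

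Igh was the most covered of the 4 loci in every list. In het its peaks covered 38.4% of the window at E13.5, and the later stages had 38.3%, 33.8% and 28.1%. In KO the shares were 41.3%, 37.7%, 38.2% and 31.1%. The rest of the genome went the other way between the first and last stage, with 6.44%, 11.9%, 12.6% and 11.2% in het and 7.35%, 10.99%, 13.2% and 12.2% in KO. Among 896 tiled windows of the width of Igh, 8 were more covered than Igh in E13.5 het and 8 in E13.5 KO, where the median window had 4.34% and 5.002%. At E16.5, 30 windows (het) and 21 (KO) were above Igh, then 22 and 16 at P0, and 18 and 17 at P3.

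The other 3 loci had lower shares. In E13.5 het the rest of chromosome 6, which holds Igk and Trb, was 7.19% covered, and the rest of chromosome 14 6.04%; at P3 these were 11.97% and 11.3%. Igk covered 6.14% in het and 7.36% in KO at E13.5, 13.53% and 13.4% at E16.5, 17.4% and 16.2% at P0, and 12.1% and 11.5% at P3. Tra/Trd covered 8.42% and 9.15%, then 12.04% and 11.5%, 12.02% and 14.1%, and 9.26% and 11.8%. Trb was lowest, and below the rest of chromosome 6 in every list, at 3.52% and 4.68%, then 7.61% and 6.97%, 10.2% and 9.73%, and 8.75% and 8.87%. Igk and Trb thus had their highest share at P0 in both genotypes, and Igh had its lowest at P3. From E13.5 to P3 the covered length in het, with peaks clipped to the window, changed by a factor of 0.731 in Igh, 1.98 in Igk, 1.10 in Tra/Trd and 2.49 in Trb, against 1.74 in the rest of the genome. The KO factors were 0.752, 1.56, 1.29 and 1.90, against 1.67.

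**Figure D1:**
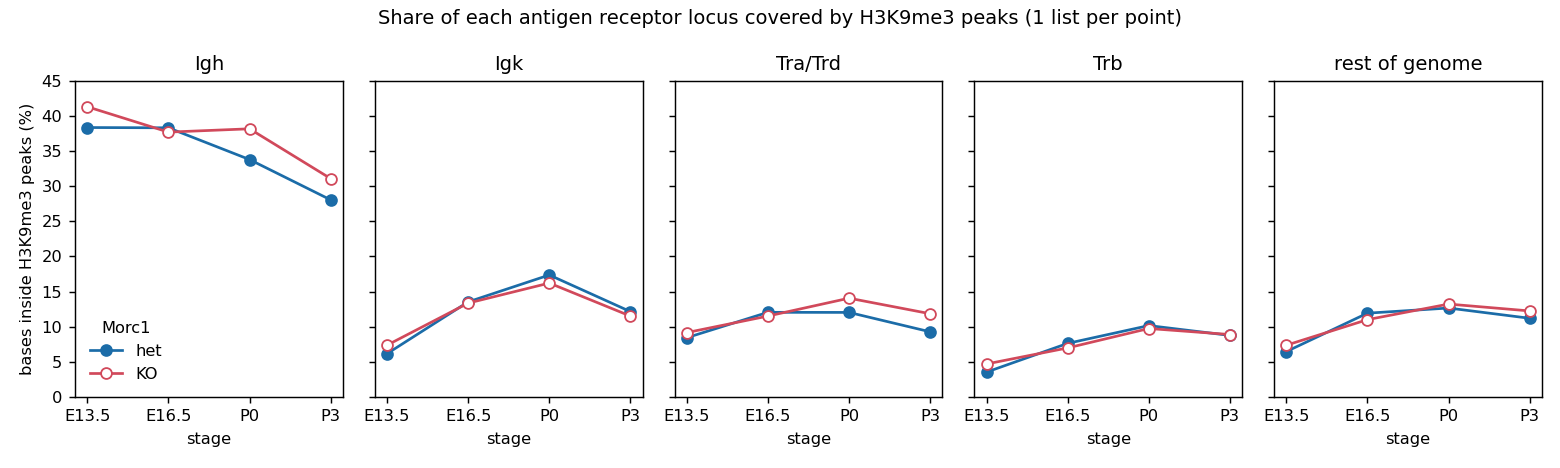
Share of bases (%) inside H3K9me3 peaks in each receptor locus and in the rest of the genome, by stage; filled points are Morc1 het and open points KO, 1 list each, without error bars because no replicate lists exist. Igh sits between 28.1% and 41.3%, above the other panels, and is lowest at P3.

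Long peaks set Igh apart in the same lists. Peaks of at least 20 kb numbered 14 in het and 12 in KO at E13.5, 8 and 10 at E16.5, 10 and 12 at P0, and 7 and 8 at P3. They made up 46.2% of the Igh covered length in E13.5 het and 24.9% in P3 het. In the rest of the genome these shares were 13.1% and 3.94%, so the share was lower at P3 there too. Igh held between 0.63% and 2.06% of all such peaks in a list, in 0.109% of the genome span. Igk and Trb had none, and Tra/Trd had 1 in each list through P0 and 0 at P3. The longest Igh peak was 125.3 kb in E13.5 KO, chr12:114943951-115069254, over 10 V segments from Ighv1-43 to Ighv8-5. The same interval held 121.9, 121.5, 115.5 and 104.8 kb of peaks in the 4 het lists, in order of age, as 2, 2, 5 and 7 peaks. The KO lists from E16.5 on held 123.2, 121.8 and 106.7 kb, as 1, 2 and 8 peaks. Its covered length thus varied less than the number of peaks it was split into.

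Most of the covered length lay in the V part of Igh. The stretch from the V segments to the window's end was 42.9% covered in het and 46.2% in KO at E13.5, and 30.0% and 33.3% at P3. Cut into 3 equal parts, the middle part was highest, at 61.4% and 66.0% at E13.5 and 44.4% and 47.7% at P3. The part farthest from J was at 35.4% and 39.7% at E13.5 and at 18.5% in both genotypes at P3. The part nearest to J was at 31.9% and 32.8% at E13.5, and at 27.1% and 33.7% at P3. The stretch from the window's start through the constant genes to J includes the sequence between and beyond these genes. It was between 5.72% (E13.5 het) and 21.7% (P0 KO) covered. The stretch of the D segments, with the sequence between them, was between 0% (E13.5 het) and 7.28% (P0 KO).

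**Figure D2:**
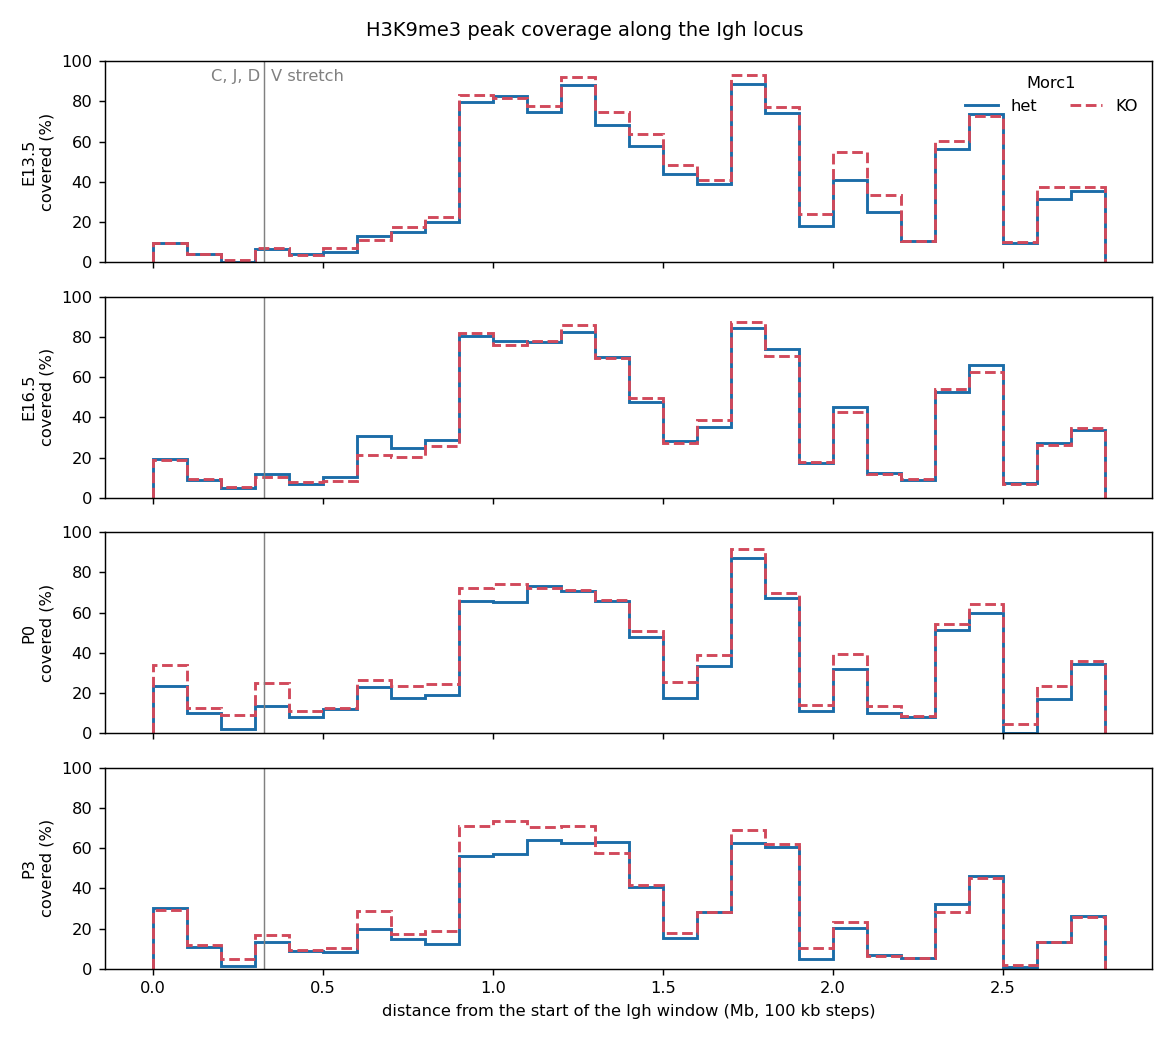
Share of bases (%) inside H3K9me3 peaks in 100 kb steps along the Igh window, as distance in Mb from its start; solid lines are Morc1 het and dashed lines KO, 1 list each, and the grey line marks the start of the V stretch. The highest step lies between 0.9 and 1.9 Mb in every list. The first step, which holds constant genes and the sequence beyond and between them, goes from 9.30% in E13.5 het to 30.4% in P3 het.

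Of the 182 Igh V segments, 92 in het and 101 in KO were touched by a peak (at least 1 bp) at E13.5, 90 and 91 at E16.5, 74 and 80 at P0, and 69 and 76 at P3. In all 8 lists the same 63 were touched, and 74 were touched in none. The V segment bodies were covered over 47.2% in E13.5 het, against 42.8% of the sequence between them, and over 36.2% against 29.9% in P3 het. The bodies were above the sequence between them in every list, least in P0 KO (41.6% against 40.9%). Touched segments thus go largely with the coverage of the whole stretch. The families differed. Ighv1, the largest with 90 segments, had 50 and 60 touched at E13.5 and 37 and 41 at P3. Ighv8, which lies among Ighv1, had 10 and 11 of 16 at E13.5 and 7 and 7 at P3, while the J-proximal Ighv3 had 5 or 6 of 8 in every list. Ighv5, also J-proximal, had 2 to 4 of 21, and Ighv2 had 1 of 11 in E16.5 het and 0 in the other lists. The longest Igh stretch without a peak in any list was 83.9 kb, chr12:113610164-113694063, over 10 Ighv2 and Ighv5 segments. Pseudogene V segments were touched more often than the rest: 39 and 44 of 63 against 53 and 57 of 119 at E13.5, and 34 and 34 against 35 and 42 at P3.

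The Igh constant genes, which set the antibody class, were outside all peaks at E13.5. From E16.5 on, Ighg1 (IgG1) had 3272 to 3983 of its 3983 bp in peaks in every list. Ighe (IgE) had 1008 to 1647 bp and Ighg2b (IgG2b) 179 to 709 bp in the same 6 lists. Ighg2c (IgG2c) was touched in both lists at E16.5 and then in KO alone, over 610 bp at P0 and 279 bp at P3. Ighd, the delta constant gene, was touched in the KO lists of E16.5 (1001 bp), P0 (1839 bp) and P3 (1001 bp) and in no het list. The E16.5 KO call was a peak of 1001 bp, the most common peak length in the lists. Ighm, Igha, Ighg3 and the 4 Igh J segments were touched in no list.

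Beside the segments, the Gm40899 gene body, whose promoter is printed above, was inside peaks over all 15147 bp in both E13.5 lists. Later it had 10781 bp in het and 11429 bp in KO at E16.5, 6373 and 10621 at P0, and 6747 and 7713 at P3. Adam6a and Adam6b, which male fertility in mice depends on, had no base in a peak at E13.5 and at most 588 bp later.

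Igk had few touched segments. Its V segment bodies were covered over 3.28% in E13.5 het, against 6.26% of the sequence between them, and over 13.53% against 13.56% in E16.5 het. Of 162 V segments, 6 in het and 9 in KO were touched at E13.5, 25 and 23 at E16.5, 26 and 24 at P0, and 21 and 18 at P3. No list touched a segment of Igkv1 (13 segments) or Igkv6 (9 segments). The most constant peak, chr6:68594043-68609990, lay between Igkv15-97 and Igkv10-96 with no segment under it, and 15.7 kb of it was called in all 8 lists. The J segments were free of peaks before birth. At P0 2 of 5 were touched in het and 4 in KO, and at P3 2 in het and 5 in KO. All 5 lie within chr6:70722562-70723923, so the same peak can touch several of them. Igkc, the kappa constant gene, was touched in no list.

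Tra/Trd was called at its far V end. That end also holds the olfactory receptor genes Olfr1507 to Olfr1510, and not all of its peaks lay over V segments. The longest P3 KO peak, chr14:52541064-52556711, touched no receptor segment. The longest peak of E13.5 het, chr14:52633717-52656500, spanned Trav6-1 and Trav7-1. That interval held 22.4 to 22.8 kb of peaks in every list through P0, and at P3 it held 20.1 kb (het) and 20.8 kb (KO). Nearer to the J segments lay a stretch of 338.5 kb, chr14:52771376-53109834, with 37 V segments and no peak in any list; these belong mostly to the duplicated d copies of the array. A further 228.7 kb with 27 segments of the n copies was also empty. Reads that map to near-identical copies may be dropped or split, and the effect on these stretches was not tested. Of 60 Traj segments, 0 in het and 2 in KO were touched at E13.5, 0 at E16.5, and 5 in het and 10 in KO at both P0 and P3. Neighbouring Traj segments can share a peak, as Traj38, Traj37 and Traj36 did in P0 KO, so these are not independent calls. Trdj2, a delta J segment, was covered in all 8 lists. Trdc, the delta constant gene, was touched from E16.5 on over 146 to 531 bp, and Trac, the alpha constant gene, never.

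Trb had the fewest members, 10 to 22 per list. The peak over Trbv28 had a core of 7.76 kb, chr6:41259292-41267051, called in all 8 lists, and its longest form was 14.7 kb in P3 KO. Trbv21 was also covered in all 8 lists. A stretch of 106.0 kb, chr6:41083202-41189180, held 17 V segments from Trbv8 to Trbv20 and no peak. The 2 D, 14 J and 2 C segments and Trbv31 were touched in no list. Of the 14 protein-coding genes in the Trb window, which include the trypsinogen genes, 12 were touched in no list. Of the whole Trb window, 86.5% of the bases lay in no peak of any list.

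**Figure D3:**
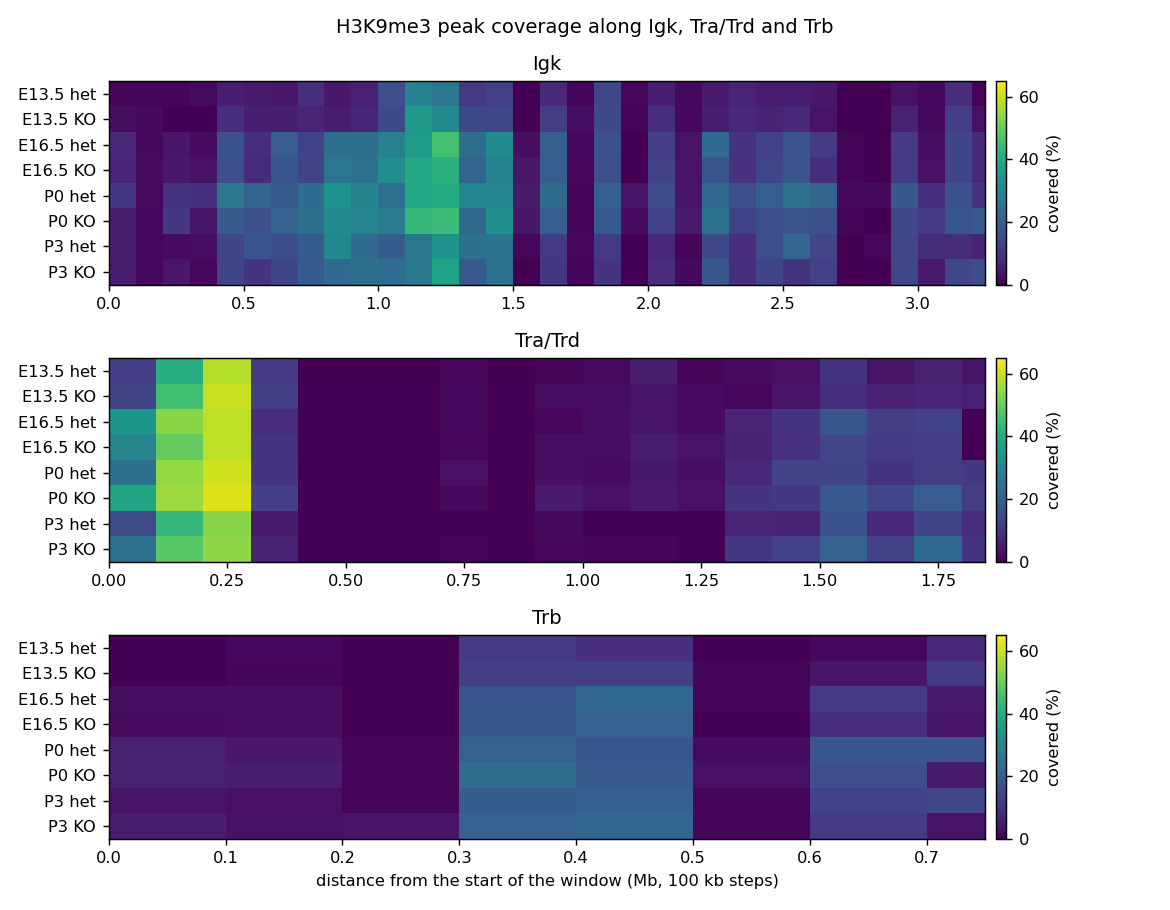
Share of bases (%, colour) inside H3K9me3 peaks in 100 kb steps along Igk, Tra/Trd and Trb, as distance in Mb from each window's start; rows are the 8 lists. Tra/Trd shows a called end followed by an empty stretch, and the Igk and Trb rows are brighter from E16.5 on than at E13.5.

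**Figure D4:**
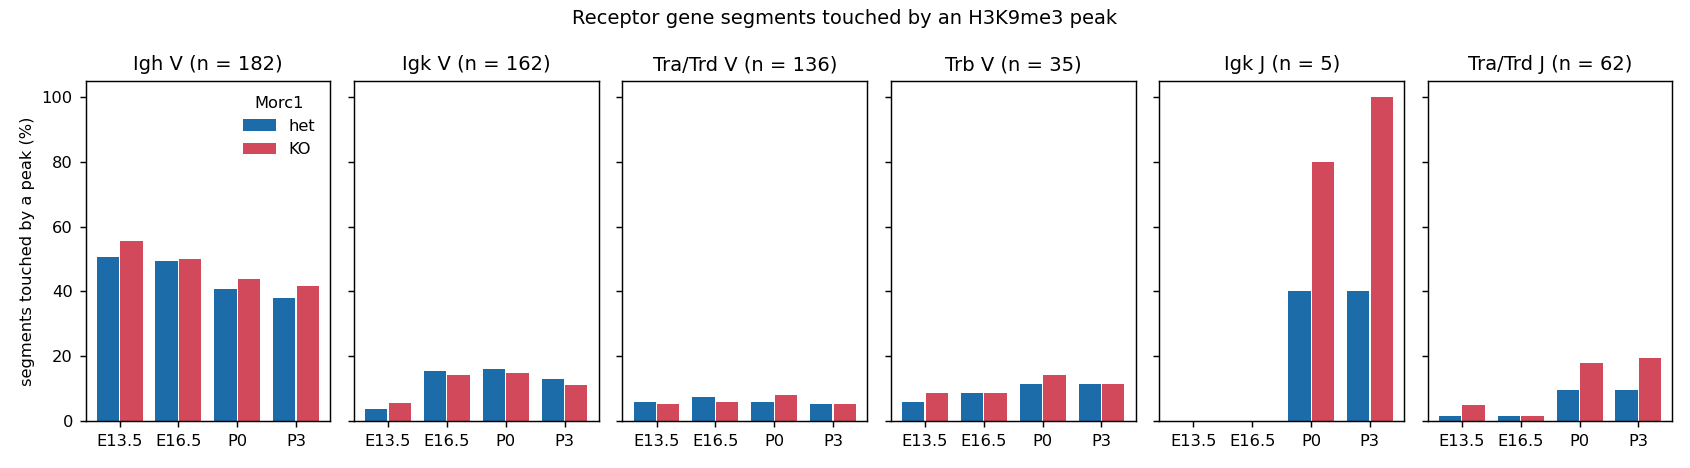
Share of V segments (and of Igk and Tra/Trd J segments) touched by a peak, in percent, by stage and Morc1 genotype, 1 list per bar. Igh V bars are highest at E13.5, and the J bars are near 0 before birth and higher in KO than in het at P0 and P3. Neighbouring J segments can lie under the same peak, so they are not independent.

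Turnover between stages differed between the loci and was read from peaks with no base in common with the neighbouring stage. From E13.5 to E16.5 in het, 14 of 136 Igh peaks were new, against 48 of 110 in Igk, 20 of 57 in Tra/Trd and 8 of 17 in Trb (45.9% of the whole E16.5 list). In KO the new peaks were 10 of 129, 38 of 106, 17 of 58 and 5 of 15 (38.5%). Igh peaks of E16.5 thus mostly shared at least 1 bp with a peak of the first stage. A shared base is more easily met where coverage is high, and Igh was 38.4% covered in E13.5 het, against 6.44% in the rest of the genome. How far coverage sets the shares of new peaks was not tested. Lost over the same step were 18 of 134 Igh peaks in het (13% of the whole list) and 29 of 135 in KO (17.6%). From E16.5 to P0, Igh lost 22 of 136 in het and 10 of 129 in KO (21.4% and 15.7%) and gained 15 of 150 and 26 of 150 (28.5% and 33.9%). From P0 to P3, the lost peaks in het were 28 of 150 in Igh, 43 of 141 in Igk, 21 of 57 in Tra/Trd and 6 of 22 in Trb, against 22% of the whole list. New ones numbered 7 of 148, 4 of 109, 2 of 43 and 3 of 19 (13.7%). In KO, 29 of 150 Igh peaks and 33 of 125 Igk peaks were lost (21.6%), and 5 of 155 and 5 of 111 were new (13.4%).

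For the comparison of genotypes, the KO to het ratio of covered length over the 4 loci was 1.10 at E13.5 (interval 1.02 to 1.1797), 0.979 at E16.5 (0.916 to 1.05), 1.07 at P0 (1.00 to 1.14) and 1.08 at P3 (1.00 to 1.16). The rest of the genome gave 1.14, 0.923, 1.04 and 1.09. In both, KO covered more than het at 3 stages and less at E16.5. Igh gave 1.08, 0.984, 1.13 and 1.11, and Tra/Trd 1.09, 0.956, 1.17 and 1.28. Igk was above 1 only at E13.5, with 1.20, 0.987, 0.934 and 0.947. Trb gave 1.33, 0.915, 0.959 and 1.01 on 26.4 to 76.1 kb. None of these ratios has a replicate check. List size moved with these ratios: the KO list was longer than het at E13.5, P0 and P3 and shorter at E16.5. With the longer list of each stage cut to the size of the shorter, keeping the longest peaks, the ratios over the 4 loci were 1.08, 0.989, 1.05 and 1.06, on the same side of 1. By locus, Igk at E16.5 became 1.003 and Trb at P3 0.999, and the other 14 ratios kept their side.

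Peaks with no base in common with the other genotype's list were counted next. At E13.5 17 of 261 het peaks and 48 of 280 KO peaks had none, against 11.3% and 21.4% of the whole lists. At E16.5 there were 30 of 320 and 19 of 308 (background 13.4% and 6.94%), at P0 43 of 370 and 52 of 363 (12% and 19.4%), and at P3 28 of 319 and 54 of 339 (13.9% and 20.7%). With equal list sizes the counts were 28 het and 32 KO peaks at E13.5, and 21 and 26 at E16.5. They were 58 and 39 at P0, and 41 and 43 at P3. By count, the order of the genotypes thus turned at E16.5 and P0. Whole-list shares at equal list sizes were not computed, so these counts have no background beside them. By locus, Igh and Igk differed after birth in which genotype had more unmatched peaks. At P0 Igh had 3 of 150 het peaks (2%) and 21 of 150 KO peaks (14%). At P3 it had 5 of 148 (3.38%) and 21 of 155 (13.55%). Each of these Igh shares lay below that of the whole list. In het the intervals (0.682% to 5.71% and 1.45% to 7.66%) left out the whole-list shares. In KO the interval included the whole-list share at P0 (9.34% to 20.5%) and not at P3 (9.04% to 19.8%). At P0 Tra/Trd had 5 of 57 (8.77%) and 15 of 69 (21.7%), and at P3 1 of 43 (2.33%) and 14 of 55 (25.5%). Its KO shares lay above the whole list, but their intervals (13.6% to 32.8% and 15.8% to 38.3%) included the whole-list shares. Its het shares lay below. Their interval included the whole-list share at P0 (3.81% to 18.9%) and not at P3 (0.412% to 12.1%). Igk had 30 of 141 (21.3%) and 14 of 125 (11.2%) at P0. At P3 it had 19 of 109 (17.4%) and 17 of 111 (15.3%). The Igk het shares lay above the whole list and its KO shares below. At P0 the intervals (15.3% to 28.7% in het, 6.79% to 17.9% in KO) left out the whole-list shares. At P3 they included them (11.5% to 25.6% and 9.79% to 23.2%). With equal list sizes Igh had 9 of 150 and 17 of 139 at P0, and 12 of 148 and 18 of 145 at P3. Igk then had 36 of 141 and 9 of 114 at P0, and 23 of 109 and 12 of 102 at P3.

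Positions that differed the same way at both P0 and P3 were counted in 1 kb bins, each called when at least 50% of its bases were in a peak. Of the bins called in either genotype at both stages, 6 of 911 in Igh were het-only and 37 KO-only (0.659% and 4.06%), against 6.44% and 5.33% over the genome. Tra/Trd had 0 and 17 of 209 (0% and 8.13%), Igk 32 and 11 of 435 (7.36% and 2.53%), and Trb 5 and 2 of 67. The KO-only share of Igh was thus below that of the genome, and its het-only share lower still. At single stages over the genome, of the bins called in either genotype at P0, 13.2% were het-only and 16.9% KO-only, and at P3 13% and 20.4%; at E13.5 these were 8.74% and 20%, and at E16.5 13.7% and 6.55%. Runs of bins called in the same genotype only at 2 or more stages were then located. The longest het-only run in Igk, chr6:68020000-68026999 between Igkv1-122 and Igkv17-121, held 6.52 kb of peaks at P0 and 6.55 kb at P3 in het, and 0 in the other 6 lists. In Trb a run beyond Trbv31, chr6:41560000-41563999, was covered over its 4 kb in P0 and P3 het and over 0 in KO at those stages. At E13.5 both genotypes had part of it, 1.91 kb (het) and 1.84 kb (KO). Igh had a KO-only run at chr12:114265000-114268999 over Ighv13-1, with 4 kb in KO at P0 and P3 against 0.481 and 0.305 kb in het. At E13.5 both genotypes covered it over 4 kb, and at E16.5 het had 4 kb and KO 3.66 kb. The difference was thus seen only at P0 and P3. In Tra/Trd the run chr14:54180000-54182999 over Traj39 to Traj36 held 2.48 kb at P0 and 3 kb at P3 in KO, and 0 elsewhere.

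**Figure D5:**
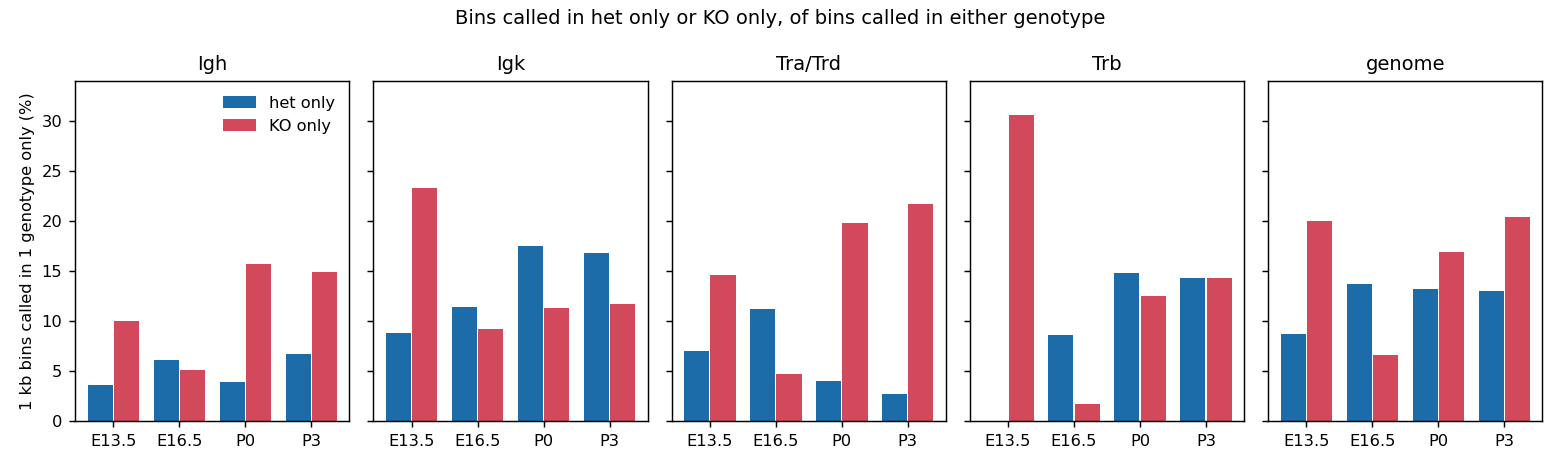
Share (%) of 1 kb bins called in either genotype that were het-only or KO-only, by stage, for each locus and the whole genome, 1 list per genotype and stage. After birth Igh and Tra/Trd have more KO-only than het-only bins, as the genome has, and Igk more het-only bins.

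The overlap between genotypes was above that of the genome in Igh and Tra/Trd at every stage and in Trb at most stages. The Jaccard index of het and KO (shared over combined base pairs) was 0.865, 0.892, 0.818 and 0.782 in Igh from E13.5 to P3, and 0.713, 0.798, 0.699 and 0.666 over the genome. Tra/Trd gave 0.789, 0.840, 0.770 and 0.732, Trb 0.711, 0.874, 0.749 and 0.707, and Igk 0.689, 0.792, 0.717 and 0.692. Of the Igh bins called in any list, 47.6% were called in all 8, against 18.5% in Igk, 37.3% in Tra/Trd, 21.6% in Trb and 19.6% over the genome. Neither measure was adjusted for peak length or for the share covered, which was higher in Igh than in the rest of the genome.

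Other receptor loci and another kind of tandem array were set beside these. Igl, the lambda light chain locus, was 22.9% covered in het and 25.6% in KO at E13.5, 42.3% and 38.9% at E16.5, 43.2% and 37.96% at P0, and 35.7% and 36.9% at P3. It was above Igh at E16.5 and P3 in both genotypes and at P0 in het. The regions are unlike, since Igl was bounded by its 12 gene segments (199.1 kb) and Igh was the whole 2.8 Mb window. The middle part of the Igh V stretch was above Igl in every list, with 57.2% against 42.3% in E16.5 het. Trg, the T cell receptor gamma locus, stayed between 5.68% and 13.9%. The olfactory receptor cluster 1 of chromosome 2 was the only one of the 9 clusters examined with a share above that of Igh at E13.5, at 61.3% and 63.7%, and it had 50.03% and 51.4% at P3. As in Igh, its P3 share was below its E13.5 share in both genotypes.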

How the data were processed

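H3K9me3 ChIP-seq was described for 16 samples in 8 groups. Per the labels' protocols, fixed germ cells were sonicated, precipitated and sequenced from low-input libraries. The submitters' processing notes name mm10, bcl2fastq 2.20, cutadapt 1.18, Bowtie2 2.3.4.1, deepTools 3.5.0 and HOMER 4.10, with no role. The authors deposited peaks as start and end positions only, with no score, so peak height was not used. The peak caller's settings, pooling and depth are not given in the sources used here. Lists were tied to groups by the stage and genotype in their names.

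Starts were shifted to 1-based. Members, covered length, segments touched (at least 1 bp), 1 kb bins, Jaccard indices and ratios were computed with Python 3.11.15, numpy 2.4.6 and statsmodels 0.14.6, and gene positions came from RefSeq GRCm38.p6. Ratios between stages and shares of window parts used peaks clipped to the window. The script was tested on 20 simulated list pairs, all recovered. To equalise list sizes the longest peaks were kept, and peaks tied at the last length kept were taken at even spacing along the genome. Named items were the longest peaks, longest unmatched peaks, longest runs called in 1 genotype, constant, D, J and V groups, and other genes of the windows. Members and lists were chosen with earlier results of these data known.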

Additional observations from a re-analysis of the deposited data

Results flagged for a closer look

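The KO to het ratio of covered length lay on the other side of 1 from the E13.5 ratio of the same region in 8 cases, and none of these differences was tested, since each ratio rests on 1 list per genotype. At E16.5 it was 0.979 over the 4 loci, 0.984 in Igh, 0.987 in Igk, 0.956 in Tra/Trd and 0.915 in Trb. At P0 it was 0.934 in Igk and 0.959 in Trb, and at P3 0.947 in Igk.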

How the results depend on the processing

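No paired analysis was possible because each group had 1 list and the lists carry no replicate numbers. For the same reason no replicate could be left out. The number of peaks without a counterpart depended most on the processing. With equal peak numbers it was 28 in E13.5 het, against 17. Without peaks of the most common length (1001 bp) it was 7 in E13.5 het, 10 in E16.5 KO and 27 in P0 het, against 17, 19 and 43, and the P0 het covered length was 1730.11 kb against 1809.18 kb. When a counterpart had to cover 50% of a peak, P3 het had 47, against 28. With equal peak numbers the order of the genotypes by count turned at E16.5 (21 het, 26 KO) and P0 (58 het, 39 KO). Whole-list shares were not computed at this setting. No ratio over the 4 loci changed its side of 1. By locus, Igk at E16.5 reached 1.003 and Trb at P3 0.999. Depth is unknown, so an uncalled base is not shown to lack H3K9me3.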
